A study of Homo sapiens with 18 samples.

Results

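The genes described here encode the machinery that acidifies the lysosome and digests its content. Their RNA was measured in 786-O, a long-established human line from a clear cell carcinoma of the kidney. They are the subunits of the vacuolar proton pump (symbols beginning ATP6V1 or ATP6V0), the cathepsins (CTS and a letter), the membrane proteins LAMP1 and LAMP2, the pump's accessory proteins ATP6AP1 and ATP6AP2, and the transcription factor TFEB. Chosen by symbol among protein-coding genes, they number 44 of the 58735 genes in the largest table. Of these, 34 passed the filter on low values in at least 1 comparison, and 27 passed it in all 3. The filter asked for at least 1 FPKM (sequenced fragments divided by gene length in kilobases and by library size) in at least 3 of the 6 libraries of a comparison.

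RBCK1, ANKRD35 and MITD1 were knocked down, each against its own control, in 6 groups of 3 RNA-seq libraries. RBCK1, an E3 ubiquitin ligase subunit, was lowered with an shRNA (shRBCK1, with shcontrol); ANKRD35 with siANKRD35 (control sicontrol_for_siANKRD35); and MITD1, a protein with roles in cytokinesis, with siMITD1 (control sicontrol_for_siMITD1). In the ANKRD35 table the knockdown columns name an shRNA while the titles name an siRNA, so the reagent there is uncertain. The series title links these genes to sunitinib, a kinase inhibitor. The labels name no drug treatment in any group, so all values are from cells without a stated drug. The labels give 786-O for every library. They do not say that replicates were separate cultures, so the p-values reflect how much these libraries vary, and that variation may be only technical.

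The lysosome is the acidic compartment where the cell breaks down material from endocytosis and autophagy. Its vacuolar ATPase couples ATP hydrolysis in a peripheral V1 sector (catalytic A and B subunits, E and G stalks, a D and F rotor, regulatory C and H) to proton transport through a membrane V0 sector (a, c, c'', d and e). The low pH activates the cathepsins, proteases of the cysteine, aspartic and serine classes, and it traps weak bases, sunitinib among them, inside the lumen. LAMP1 and LAMP2 coat the inner face of the lysosomal membrane. TFEB and its relatives drive many of these genes through a promoter element called CLEAR.

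RBCK1 was 487, 492 and 462 FPKM in shcontrol and 30.8, 32.0 and 32.9 in shRBCK1, 93.4% lower. ANKRD35 was 753, 687 and 742 FPKM in its control and 0, 0 and 0.0332 in siANKRD35. MITD1 was 7.16, 7.42 and 7.83 FPKM in its control and 2.43, 2.66 and 3.03 in siMITD1, 63.7% lower. ANKRD35 was listed at no more than 0.0392 FPKM in every library of the RBCK1 and MITD1 tables, so its control level stands apart from the other tables. RBCK1 was 64.7 to 66.5 FPKM in the MITD1 control and 68.2 to 73.1 in the ANKRD35 control, so shcontrol stands apart in turn. Reads recovered from FPKM and gene length ran from 16346478 to 18648246 per library in the RBCK1 table and from 17502646 to 19034974 in the ANKRD35 table. Of 11 markers of the labelled line and of renal tubule, 10 reached 1 FPKM in shcontrol and in the MITD1 control but 7 in the ANKRD35 control. CDH6 was at 0 in both ANKRD35 groups, against a mean of 13.5 FPKM in shcontrol. CA9 was at 0 in the ANKRD35 control, but it was also the marker that stayed under 1 FPKM in shcontrol. The ANKRD35 libraries thus differ from the others in CDH6 and in how many of these markers reached 1 FPKM, and whether all are of that line was not tested. Nor do the labels say whether a target had been raised before it was knocked down, so the fall of ANKRD35 and of RBCK1 is known only against these controls. Summed markers reached at most 1.93 FPKM for monocytes, macrophages and osteoclasts, 0.644 for endothelium, 0.496 for lymphocytes and 7.66 for fibroblasts and smooth muscle. Summed markers of the acid-secreting intercalated cell, a renal cell with a specialised proton pump, reached 33.4 FPKM in the MITD1 control. There only 1 of the 9 listed genes, CA2 (carbonic anhydrase 2), reached 1 FPKM. Of the 9, 5 are members here, and the factor FOXI1 and the pump gene ATP6V1G3 were at 0 in shcontrol and shRBCK1.

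The CLEAR element was searched in RefSeq promoter windows of GRCh38.p14, from 250 bases before to 50 bases after each start site. A window was found for 30 of the 44 genes, 39 windows in all. The 8-letter core TCACGTGA, the full 10-letter element (that core with a G before and a C after it) and the 6-letter E-box CACGTG were counted; each reads the same on both strands, and each shorter motif lies within the longer. The full element was in 1 of 39 windows (2.6%, against 0.353% of all 35116 windows). The 8-letter core was in 4 of 39 windows (10.3%, against 0.98% of all windows) and the E-box in 9 of 39 (23.1%, against 7.3%). Overlapping windows of ATP6V0E2 hold the same E-box and were counted separately. By gene, the E-box was found for 8 of 30 (26.7%). The 4 genes with the 8-letter core are shown because they include a stalk subunit and a V0 subunit of the pump, a cathepsin and a membrane protein. Their RNAs can also be read against the motif below. Each 30-base stretch is written on the gene's own strand, with the 8-letter core in capitals, and that of ATP6V1G1 is part of the full element. Only stretches that end before the start site are shown, so 1 of the 2 cores in the LAMP1 window is left out.
ATP6V1G1: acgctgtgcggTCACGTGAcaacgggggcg
ATP6V0D1: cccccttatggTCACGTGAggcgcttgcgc
CTSA: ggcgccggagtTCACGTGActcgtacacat
LAMP1: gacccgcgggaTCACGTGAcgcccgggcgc

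The ATP6V1G1 stretch is at chr9:114587699-114587728 on the plus strand, with the capitals starting 59 bases before the RefSeq start site. That of ATP6V0D1 is at chr16:67481199-67481228 on the minus strand, with the capitals starting 60 bases before it. The CTSA stretch is at chr20:45891298-45891327 (plus strand, 26 bases before) and the LAMP1 stretch at chr13:113297199-113297228 (plus strand, 29 bases before). The CTSA and ATP6V0D1 stretches lie inside the GENCODE 29 gene spans, which start farther upstream. The RNAs of these 4 genes did not move together. In shRBCK1, CTSA and LAMP1 rose, ATP6V0D1 fell and ATP6V1G1 was not called; in siMITD1, ATP6V1G1 rose, CTSA and LAMP1 fell and ATP6V0D1 was not called. In siANKRD35, ATP6V1G1 rose, LAMP1 fell and the other pair was not called. A match is a description of the letters, not evidence of binding.

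Cathepsins gave the largest sum of these RNAs in the RBCK1 and MITD1 tables, but in the ANKRD35 control their sum (290 to 308 FPKM) was below that of V1 and V0 subunits together. In shcontrol CTSZ, a carboxypeptidase, led with 323 to 342 FPKM, followed by CTSD, the main aspartic protease, at 146 to 151 and CTSL, an endopeptidase, at 136 to 146. The membrane subunit ATP6V0E1 came next at 118 to 121 FPKM. In the MITD1 control the order was CTSZ at 334 to 341 FPKM, then ATP6V0E1 at 145 to 160 and CTSD at 126 to 147, whose ranges overlapped. In the ANKRD35 control CTSZ was 108 to 115 FPKM, ATP6V0E1 91.9 to 99.6 and the rotor subunit ATP6V1F 82.2 to 102, the latter pair overlapping. In siANKRD35 the means of ATP6V1F (159 FPKM) and ATP6V0E1 (143) were above that of CTSZ (109). The remaining members ran down to 10 genes that passed the filter in no comparison, ATP6V1B1, ATP6V1C2, ATP6V1G2, ATP6V1G3, ATP6V0D2, ATP6V1FNB, ATP6V1G2-DDX39B, CTSE, CTSF and CTSG. The highest value among them was 0.775 FPKM, for ATP6V1C2 in a shcontrol library. ATP6V1G3, ATP6V1G2-DDX39B and CTSG were at 0 in every library. In the MITD1 table ATP6V1FNB has no row, and CTSO is listed at 0 in its 6 libraries. CTSH lay just outside the filter in the ANKRD35 comparison, with values from 0.916 to 1.09 FPKM, and CTSK just inside it, from 0.621 to 1.30.

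With RBCK1 lowered, 19 of 30 tested members were called, where the share called among all genes was 49.1%. RNAs of the pump fell in most cases, 9 of its 15 tested V1 and V0 subunits lower (24.9% of all genes were lower) and 2 higher (24.1%), while LAMP1, LAMP2, TFEB, CTSA and CTSD rose. With ANKRD35 lowered, 18 of 32 were called against 36.3% of all genes, 14 of them higher (19.4% of all genes were higher) and 4 lower (16.9%). The rises took in 9 of 17 pump subunits and 5 of 10 cathepsins. With MITD1 lowered, 20 of 31 were called against 65.6% of all genes, 6 higher (30.0% of all genes were higher) and 14 lower (35.6%), a total share close to the background. There LAMP1, LAMP2 and 6 of 11 cathepsins fell. A call was a limma adjusted p under 0.05, over all 12227, 11890 and 10415 genes tested. Member medians of the log2 change were -0.07, 0.23 and -0.03, beside 0.01, 0.03 and -0.03 over all genes. The groups did not overlap for 24 of 30, 20 of 32 and 23 of 31 members, beside 59.0%, 52.2% and 70.4% of all genes. Changes are on the log2(FPKM + 1) scale, which understates those of low genes. In bulk RNA, fewer cells of a type and less RNA per cell cannot be told apart.

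**Figure D1:**
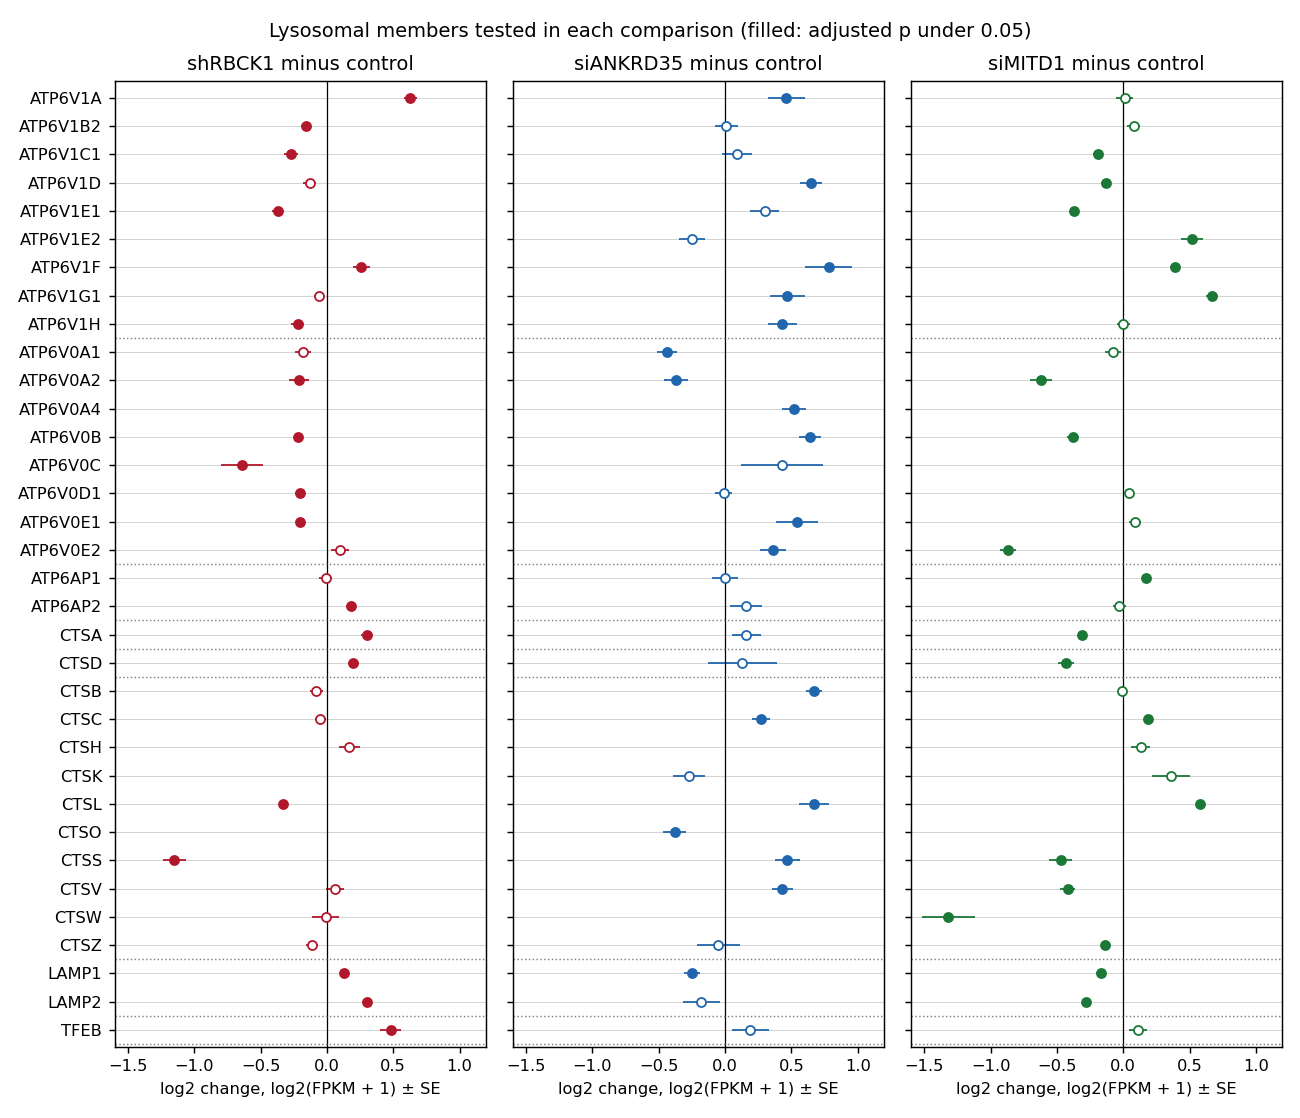
Log2 change, on the log2(FPKM + 1) scale, of each tested member in knockdown minus control libraries (points, bars ± SE of the limma fit), ordered by role from V1 at the top to TFEB; filled points have a limma adjusted p under 0.05. CTSW in siMITD1 (-1.32) and CTSS in shRBCK1 (-1.15) lie farthest to the left, and ATP6V1F in siANKRD35 (0.78) farthest to the right.

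The counts in siANKRD35 moved with single libraries. Members called higher numbered 8 without control replicate 1, 7 without control replicate 2, 7 without control replicate 3, 7 without siANKRD35 replicate 3 and 19 without siANKRD35 replicate 2. Members called lower numbered 1 when any control library or siANKRD35 replicate 3 was left out, and 7 without siANKRD35 replicate 2. Of the 18 calls, 8 were kept whichever library was left out: ATP6V1D, ATP6V0A1, ATP6V0A4, ATP6V0B, CTSB, CTSL, CTSS and CTSV. The siANKRD35 libraries differed among themselves in base composition: deviations from their group mean had Spearman correlations with gene GC content, across genes, of 0.67, -0.73 and 0.44 in replicates 1, 2 and 3. Deviations from a mean of 3 sum to 0, so these values do not show which library is apart. The log2 changes of this comparison also ran with gene length (Spearman -0.41 over 11890 genes, as a description), where RBCK1 had 0.03 and MITD1 0.09. With a correction for gene length 14 of the 18 calls were kept, and ATP6V1G1, ATP6V0E1, ATP6V0A1 and ATP6V0A2 were lost. With quantile normalization the calls of ATP6V0E1 (0.28, adjusted p = 0.257), ATP6V1G1 (0.23, adjusted p = 0.135), CTSC (0.15, adjusted p = 0.137), ATP6V0E2 (0.29, adjusted p = 0.0615) and ATP6V1F were lost.

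In the V1 sector, the catalytic A subunit gene ATP6V1A (chr3:113747019-113812056) had the largest rise of the pump in shRBCK1. It was 6.37, 6.98 and 6.96 FPKM in shcontrol and 10.8, 10.9 and 11.3 in shRBCK1. The groups were well apart, by 0.63 ± 0.046 (log2, SE; limma adjusted p = 4.04e-05). The B subunit that pairs with it in the catalytic ring, ATP6V1B2, went the other way, from 11.4, 10.97 and 10.9 FPKM to 10.1, 9.65 and 9.67 (-0.16 ± 0.038, limma adjusted p = 0.00988). The ratio of the A to the B RNA was therefore 0.558 to 0.638 in shcontrol and 1.08 to 1.16 in shRBCK1, without overlap. In siANKRD35 that ratio was 0.497 to 0.589 against 0.352 to 0.401 in the control, and in siMITD1 it was 0.748 to 0.934 against 0.811 to 0.968, overlapping. The siANKRD35 call for ATP6V1A (0.46, limma adjusted p = 0.0354) was lost without any of the 3 control libraries, with an adjusted p of 0.0719 to 0.121, and without siANKRD35 replicate 3.

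The stalk subunits parted from each other in siMITD1. ATP6V1E1 (chr22:17592136-17628818) was 58.4, 59.8 and 56.7 FPKM in the control and 46.3, 43.2 and 45.5 in siMITD1. ATP6V1G1 (chr9:114587746-114598373), its partner in the peripheral stalk, was 34.0, 36.4 and 37.5 FPKM in the control and 55.3, 60.4 and 58.0 in siMITD1. In neither gene did the groups overlap, and the changes were -0.37 ± 0.035 (limma adjusted p = 3.06e-05) and 0.67 ± 0.045 (limma adjusted p = 3.83e-06). The ratio of E1 to G1 was 1.51 to 1.72 in the control and 0.716 to 0.837 in siMITD1. The minor E subunit gene ATP6V1E2 was 0.561, 0.623 and 0.586 FPKM in the control and 1.32, 1.43 and 1.09 in siMITD1. It passed the filter only through the siMITD1 libraries, so its rise (0.52) is partly set by the filter. Its share of the summed E RNA was 1.0% in each control library and 2.3% to 3.2% in siMITD1.

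In shRBCK1, ATP6V1E1 also fell, from 41.7, 40.6 and 41.5 FPKM to 31.3, 33.8 and 29.9 (-0.37 ± 0.047, limma adjusted p = 0.000541). ATP6V1G1 there was 46.4, 46.9 and 48.3 FPKM against 44.7, 47.7 and 43.6, and the groups overlapped. In siANKRD35, ATP6V1G1 was 64.1, 58.8 and 56.5 FPKM in the control and 99.2, 69.1 and 83.9 in the knockdown. Those groups did not overlap (0.47, limma adjusted p = 0.0315), but replicate 2 was closest to the control, and with a length correction the change was 0.19 (adjusted p = 0.224). The call was also lost without any control library or siANKRD35 replicates 1 or 3 (adjusted p = 0.0503 to 0.108). Pseudogene copies of ATP6V1E1 and ATP6V1G1 are annotated, and how reads between copies were assigned is not given in the sources used here.

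ATP6V1F (chr7:128862826-128865844), a subunit of the central rotor, was the only member called higher in all 3 comparisons. It was 51.2, 46.0 and 45.6 FPKM in shcontrol and 55.8, 62.1 and 54.1 in shRBCK1. In the ANKRD35 table it was 102, 88.4 and 82.2 FPKM in the control and 190.3, 116 and 171 in the knockdown, the largest rise there on the log2(FPKM + 1) scale. In the MITD1 table it was 65.7, 71.1 and 72.4 FPKM against 92.2, 93.6 and 89.1. No pair of groups overlapped, and the changes were 0.26, 0.78 and 0.39 (limma adjusted p = 0.0117, 0.0172 and 4.18e-05). In siANKRD35 replicate 2 was the lowest, and the call was lost without control replicate 2, control replicate 3 or siANKRD35 replicate 3 (adjusted p = 0.0615, 0.0665 and 0.0622). With quantile normalization that change was 0.45 (adjusted p = 0.0632). Without the filter, which tests more genes, the calls in siANKRD35 and shRBCK1 were lost (adjusted p = 0.0606 and 0.0519), so the calls in all 3 comparisons hold for the main settings. Of the ATP6V1F exon bases, 23.7% are shared with KCP on the opposite strand, and the counting strand is not given in the sources used here.

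ATP6V1D, the other rotor subunit, was 13.03, 13.2 and 13.5 FPKM in the ANKRD35 control and 19.6, 23.6 and 21.0 in siANKRD35. The knockdown libraries were all higher (0.65 ± 0.084, limma adjusted p = 0.00237). In siMITD1 it fell by 0.13 on the log2 scale, a call lost without control replicate 3 (adjusted p = 0.0543), with quantile normalization (-0.08, adjusted p = 0.0892) and with a length correction (-0.08, adjusted p = 0.101). In shRBCK1 it was not called (-0.13, adjusted p = 0.0537). The regulatory subunits ATP6V1C1 and ATP6V1H, which take part in the reversible joining of V1 to V0, fell in shRBCK1 by 0.27 and 0.22 on the log2 scale. ATP6V1C1 fell by 0.19 in siMITD1 as well, from 15.5, 15.9 and 16.1 FPKM to 13.2, 13.9 and 14.1. ATP6V1H was higher in siANKRD35 (0.43, limma adjusted p = 0.0216), a call lost without any control library or siANKRD35 replicate 3 (adjusted p = 0.0594 to 0.0826).

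**Figure D2:**
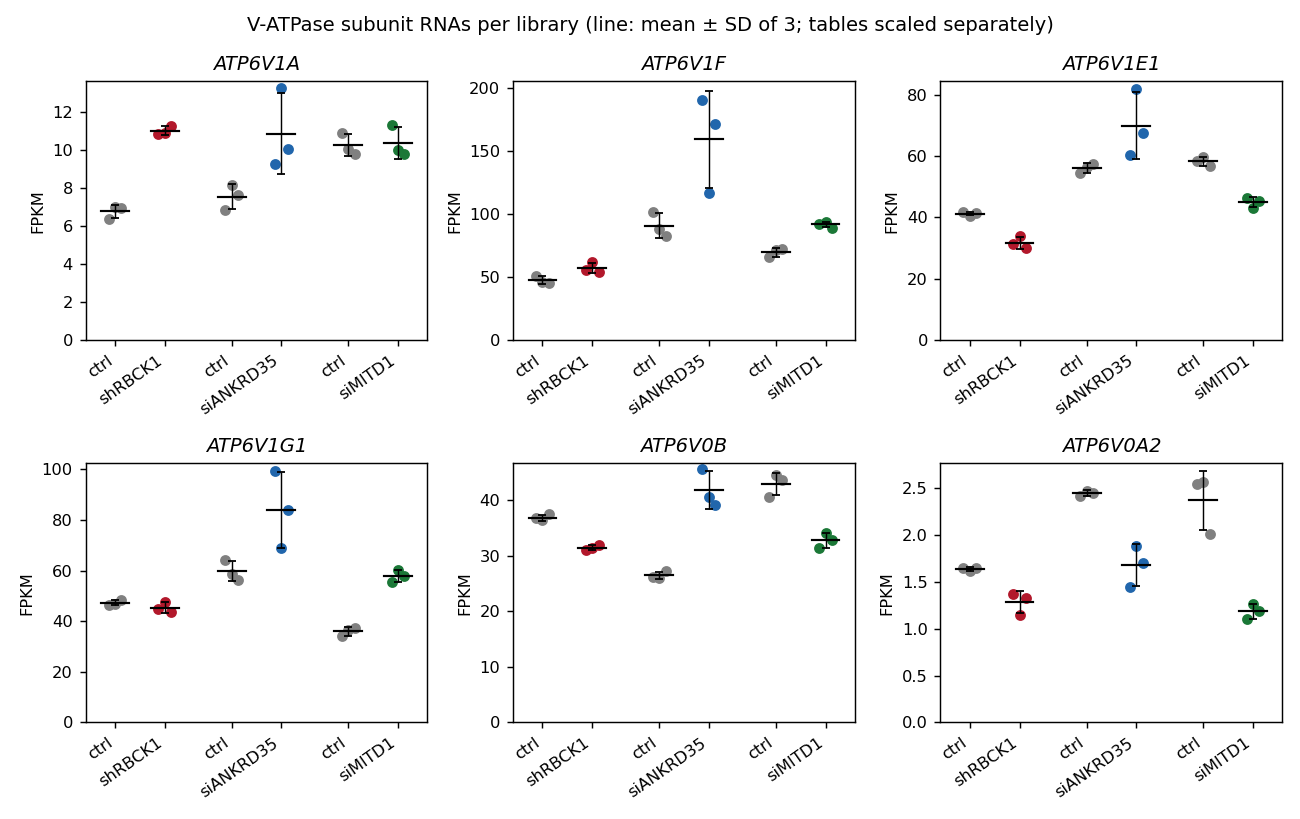
FPKM of 6 pump subunit RNAs in each library (points; grey controls, coloured knockdowns; line and bars mean ± SD of 3), with panels on separate scales from 0; levels are not comparable between the 3 tables, which were scaled separately. ATP6V1A is higher in every shRBCK1 library, ATP6V1E1 and ATP6V1G1 part in siMITD1, and ATP6V0A2 is lower in all 3 knockdowns.

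In the V0 sector no tested gene was called higher in shRBCK1 or siMITD1: 5 of 7 fell in the former, with a median of -0.20, and 3 of 6 in the latter. Of all genes 24.1% rose and 24.9% fell in shRBCK1, and 30.0% rose and 35.6% fell in siMITD1, so the siMITD1 count of falls is near the background. Summed V0 RNA was 178.7, 180.0 and 177.9 FPKM in shcontrol and 148.5, 155.6 and 156.6 in shRBCK1, with no overlap. Summed V1 RNA was 209.5, 201.1 and 205.6 FPKM against 199.3, 208.3 and 190.8, with overlap. ATP6V0E1, a small hydrophobic subunit, carries most of the V0 sum, at 121, 120.4 and 118 FPKM in shcontrol and 100.4, 106 and 106 in shRBCK1 (-0.20 ± 0.033, limma adjusted p = 0.00195). ATP6V0B, the c'' proteolipid of the proton-carrying ring, was 36.7, 36.4 and 37.5 FPKM in shcontrol and 31.0, 31.4 and 32.0 in shRBCK1. The c proteolipid gene ATP6V0C had the largest fall of the sector, from 3.99, 6.70 and 5.45 FPKM to 2.51, 3.20 and 3.41 (-0.64 ± 0.16, limma adjusted p = 0.0122). Its exons share 57.5% of their bases with the overlapping gene AC093525.2 on the same strand, so its FPKM is uncertain. Without the filter, which tests more genes, its adjusted p was 0.061.

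ATP6V0B was called in each comparison but not in 1 direction. In siANKRD35 it was 45.7, 40.6 and 39.1 FPKM against 26.1, 26.1 and 27.2 in the control (0.64 ± 0.08, limma adjusted p = 0.00212). In siMITD1 it was 31.3, 34.0 and 32.9 FPKM against 40.6, 44.6 and 43.6 (-0.38 ± 0.044, limma adjusted p = 9.43e-05). The groups did not overlap in any table. Whether effects differ between comparisons was not tested, since the tables were scaled separately.

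ATP6V0A2 (chr12:123712318-123761755), a form of the a subunit found mainly at the Golgi and endosomes, was the only member called lower in all 3 comparisons. It was 1.65, 1.61 and 1.65 FPKM in shcontrol and 1.37, 1.15 and 1.33 in shRBCK1. It was 2.42, 2.47 and 2.45 FPKM in the ANKRD35 control and 1.44, 1.89 and 1.71 in siANKRD35. It was 2.54, 2.56 and 2.01 FPKM in the MITD1 control and 1.10, 1.26 and 1.19 in siMITD1, 50.1% lower. Each knockdown library was below every control library of its table, and the log2 changes were -0.21, -0.37 and -0.62 (limma adjusted p = 0.0464, 0.0193 and 0.000214). The first call was lost without any 1 of the 6 libraries, with an adjusted p of 0.0567 to 0.127. The second was lost with a length correction (-0.11, adjusted p = 0.315) and without any control library or siANKRD35 replicate 3. The third was kept under every alternative.

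The a subunit has 4 genes, among which TCIRG1 (the a3 form, which the choice by symbol does not reach) gave 77.4% to 81.2% of their summed FPKM in the libraries of the RBCK1 and MITD1 tables and 55.9% to 65.8% in those of the ANKRD35 table. ATP6V0A4, the form typical of acid-secreting kidney cells, was 1.01, 0.968 and 0.808 FPKM in the ANKRD35 control and 1.75, 1.66 and 1.87 in siANKRD35. All siANKRD35 libraries were higher (0.52 ± 0.088, limma adjusted p = 0.00555), but the gene passed the filter only through them, so its rise is partly set by the filter. Its share of the a-subunit sum was 4.5%, 4.3% and 3.6% in the control and 8.4%, 9.1% and 9.5% in siANKRD35. ATP6V0A1, the widespread form, was 6.38, 6.02 and 6.03 FPKM in that control and 3.96, 4.48 and 4.36 in siANKRD35 (-0.44 ± 0.076, limma adjusted p = 0.00582). With the length correction its change was -0.22 (adjusted p = 0.0502). The other marker of the intercalated cell that passed the filter in this comparison was CA2, carbonic anhydrase 2, which rose from 10.3 to 14.0 FPKM (0.40, limma adjusted p = 0.00964), and the part of such cells in the ATP6V0A4 rise was not tested. The list of such markers, ATP6V0A4 included, summed to 11 to 12.9 FPKM in the control and 16.0 to 17.2 in siANKRD35. SLC4A1 and ATP6V1G3 were at 0 in both groups, and FOXI1 was at 0 in siANKRD35. In the MITD1 table the same list summed to 31.7 to 33.4 FPKM in the control and 11.3 to 12.7 in siMITD1. Nearly all of that was CA2, the only listed gene to reach 1 FPKM, which fell from 31.9 to 11.4 FPKM (-1.41, limma adjusted p = 1.33e-07). ATP6V0A4 did not fall with it, at means of 0.328 FPKM in the control and 0.372 in siMITD1. ATP6V1G3, FOXI1 and SLC4A1 were at 0 in both groups there, and the part of such cells in the siMITD1 falls of pump subunits was not tested.

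**Figure D3:**
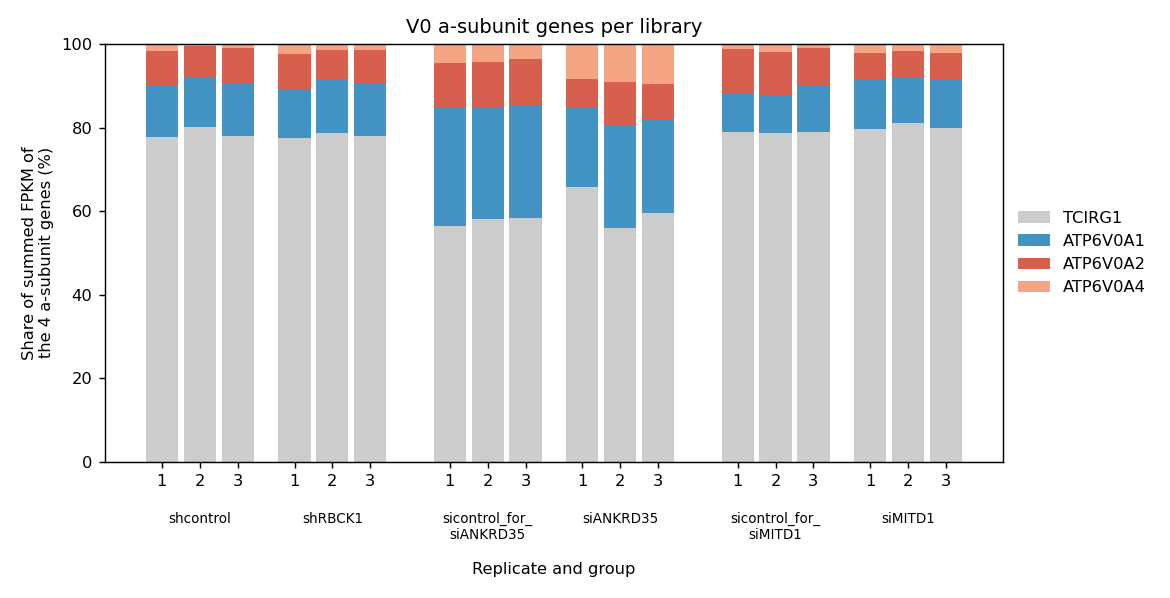
Share, in percent, of the summed FPKM of the 4 a-subunit genes that each contributed in each of the 18 libraries (stacked bars, replicate numbers on the horizontal axis). ATP6V0A4 holds 3.6% to 4.5% in the ANKRD35 control and 8.4% to 9.5% in siANKRD35.

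ATP6V0E2, the minor form of the e subunit, had the largest fall of the pump in siMITD1. It was 5.97, 6.21 and 6.69 FPKM in the control and 3.16, 2.87 and 2.93 in siMITD1, 52.5% lower. No library overlapped (-0.87 ± 0.058, limma adjusted p = 3.74e-06). ATP6V0E1 in the same libraries was 154, 145 and 160.0 FPKM against 171, 161 and 156, with overlap. The E2 share of the e RNA was 3.7% to 4.1% in the control and 1.8% in each siMITD1 library. In siANKRD35, ATP6V0E2 was called higher (0.36, limma adjusted p = 0.0302), a call lost without any control library or siANKRD35 replicates 1 or 3 (adjusted p = 0.0643 to 0.114). ATP6V0E1 was also called higher there (0.54, adjusted p = 0.0336), with 183 FPKM in replicate 2 against 120.0 and 128 in the others, and was lost with a length correction (0.25, adjusted p = 0.356) and without any control library or siANKRD35 replicate 3 (adjusted p = 0.0572 to 0.105). ATP6V0D1, which joins the rotor to the membrane ring, fell in shRBCK1 (-0.20 ± 0.037, limma adjusted p = 0.00402) and was not called in the other comparisons.

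In siANKRD35 the sectors' sums were above the control in each library: V1 was 424, 362 and 403 FPKM against 285, 272 and 265, and V0 was 209, 262 and 211 against 158, 166 and 164. Means of the genes with most V1 FPKM went from 90.7 to 159 (ATP6V1F) and from 59.8 to 84.05 (ATP6V1G1). In V0 that of ATP6V0E1 went from 96.3 to 143. Calls of ATP6V1G1 and ATP6V0E1 were lost with a length correction, and of these and ATP6V1F with quantile normalization. Called lower were 0 of 9 V1 and 2 of 8 V0 subunits, where 16.9% of all genes were lower. In siMITD1 the V1 sum was 264, 269 and 263 FPKM against 231, 239.8 and 239.8. Of the 9 V1 subunits, 3 were called higher, ATP6V1F and ATP6V1G1 among them, and 3 lower, ATP6V1E1 among them. Over all genes 30.0% were higher and 35.6% lower. The V0 sum overlapped there, at 221, 214 and 208 FPKM against 217, 214 and 226. The accessory proteins were each called in 1 comparison. ATP6AP1, which guides assembly of the V0 ring, was 40.8, 41.4 and 39.8 FPKM in the MITD1 control and 46.4, 46.0 and 45.6 in siMITD1 (0.17, limma adjusted p = 0.000669). It overlapped in the other tables, at 27.3, 26.2 and 23.8 against 24.8, 26.1 and 25.7 FPKM for RBCK1 and 13.7, 12.5 and 13.7 against 14.4, 11.4 and 14.2 for ANKRD35. ATP6AP2, known also as the prorenin receptor, was 12.6, 13.04 and 12.9 FPKM in shcontrol and 14.8, 14.4 and 14.8 in shRBCK1 (0.18, limma adjusted p = 0.0039). It was not called for ANKRD35 (8.33, 8.28 and 8.51 against 8.05, 11.4 and 9.30 FPKM) or for MITD1 (17.3, 18.7 and 18.2 against 16.7, 18.6 and 17.7 FPKM). In siANKRD35 it was called higher once gene length was corrected for (0.35, adjusted p = 0.0352).

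Among the cathepsins, the largest fall in shRBCK1 was that of CTSS (chr1:150730196-150765957), a cysteine protease known for work in antigen presentation. It was 2.36, 2.56 and 2.32 FPKM in shcontrol and 0.395, 0.630 and 0.603 in shRBCK1, 77.5% lower on means. The groups were far apart (-1.15 ± 0.089, limma adjusted p = 5.28e-05), on 510 reads summed over shcontrol and 123 over shRBCK1, and CTSS passed the filter only through shcontrol. CTSS fell in siMITD1 too, from 1.92, 1.70 and 2.23 FPKM to 0.994, 1.19 and 1.22 (-0.47, limma adjusted p = 0.00148). In siANKRD35 it rose from 2.17, 2.17 and 2.04 FPKM to 3.29, 3.81 and 2.94 (0.47 ± 0.095, limma adjusted p = 0.0101). Monocyte, macrophage and osteoclast markers, cells rich in this protease, summed to 0.983 to 1.1 FPKM in shcontrol and 1.7 to 1.89 in shRBCK1, opposite to CTSS. In the MITD1 table they summed to 1.4 to 1.93 in the control and 0.781 to 1.08 in siMITD1, and LYZ, AIF1 and TYROBP were at 0 in both tables; their part in the CTSS values was not tested.

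CTSL (chr9:87725519-87731393), a broad endopeptidase, was called in each comparison. It was 146, 139 and 136 FPKM in shcontrol and 109.8, 113 and 112 in shRBCK1 (-0.33 ± 0.034, limma adjusted p = 0.00023). It was 42.9, 39.8 and 41.9 FPKM in the ANKRD35 control and 73.9, 56.6 and 70.4 in siANKRD35 (0.67 ± 0.11, limma adjusted p = 0.00482). It was 59.9, 63.2 and 60.9 FPKM in the MITD1 control and 89.4, 93.5 and 93.5 in siMITD1 (0.58 ± 0.032, limma adjusted p = 1.19e-06). Thus it was lower in every shRBCK1 library and higher in every siANKRD35 and siMITD1 library than in the controls of its table. CTSV, its closest relative in sequence, fell in siMITD1 from 4.53, 5.07 and 4.55 FPKM to 3.15, 3.42 and 3.23. The ratio of CTSL to CTSV was 12.5 to 13.4 in that control and 27.4 to 29 in siMITD1. In siANKRD35 CTSV rose with CTSL, from 1.69, 1.80 and 1.96 FPKM to 2.91, 2.77 and 2.67 (0.43 ± 0.08, limma adjusted p = 0.00794), and their ratio overlapped.

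CTSD, the aspartic protease that cleaves other lysosomal proteins, and CTSA, a serine carboxypeptidase that shields lysosomal glycosidases, were called in the same directions. CTSD was 151, 148 and 146 FPKM in shcontrol and 162, 180.2 and 171 in shRBCK1 (0.20, limma adjusted p = 0.00673). CTSA was 30.1, 28.5 and 28.3 FPKM in shcontrol and 33.9, 37.5 and 35.9 in shRBCK1 (0.30, limma adjusted p = 0.00146). Neither pair of groups overlapped. In siMITD1 both fell, CTSD from 126, 147 and 132 FPKM to 93.8, 107 and 100.4 and CTSA from 36.3, 36.9 and 35.4 to 28.8, 29.9 and 28.3, again without overlap. Their log2 changes were -0.43 ± 0.062 (limma adjusted p = 0.000342) and -0.31 ± 0.034 (limma adjusted p = 6.16e-05).

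In siANKRD35, CTSD was 44.6, 20.7 and 37.0 FPKM against 32.6, 28.1 and 28.5 in the control. Replicate 2 was below and the other replicates above all controls, and CTSD was not called (0.13, limma adjusted p = 0.726). Without that replicate the change was 0.44 (adjusted p = 0.0104), and CTSA, at 27.9, 22.1 and 27.5 FPKM against 24.5, 22.9 and 21.4, was called as well (0.26, adjusted p = 0.0155). CTSD shares 41.7% of its exon bases with AC068580.4 on the same strand and CTSA 17.7% with NEURL2 on the opposite strand, so both levels are uncertain by what the counting did there.

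CTSB, an abundant endopeptidase and carboxypeptidase, was 66.8, 63.6 and 66.0 FPKM in the ANKRD35 control and 108, 103 and 105 in siANKRD35. Its spread was narrow in this comparison, and the change was 0.67 ± 0.063 (limma adjusted p = 0.00109). In the other tables its groups overlapped, at 51.2, 47.6 and 46.1 against 43.8, 47.0 and 46.2 FPKM for RBCK1 and 53.0, 51.0 and 52.1 against 52.9, 51.1 and 50.8 for MITD1. CTSC, which activates serine proteases by clipping dipeptides, rose in siMITD1 from 14.5, 15.1 and 14.5 FPKM to 17.4, 16.8 and 16.6 (0.19, limma adjusted p = 0.00169). It was also called in siANKRD35 (0.27, adjusted p = 0.021), a call lost without any control library or siANKRD35 replicate 3 (adjusted p = 0.0585 to 0.104). CTSO fell in siANKRD35 from 3.99, 3.65 and 3.70 FPKM to 2.76, 2.93 and 2.38 (-0.38, limma adjusted p = 0.016), with an adjusted p of 0.0549 to 0.0735 without any control library or siANKRD35 replicate 3.

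CTSW (chr11:65879809-65883741), known from cytotoxic lymphocytes, had the largest change of any member on the log2(FPKM + 1) scale, though on means CTSS fell by a slightly larger share in shRBCK1. It was 3.28, 3.91 and 2.99 FPKM in the MITD1 control and 0.564, 1.48 and 0.384 in siMITD1, 76.2% lower. The siMITD1 libraries were all below the control, with replicate 2 the nearest (-1.32 ± 0.2, limma adjusted p = 0.000376). CTSW passed the filter only through the control libraries, so its fall is partly set by the filter. The lymphocyte markers summed to 0.208 to 0.377 FPKM in the control and 0 to 0.496 in siMITD1, with CD3E and MS4A1 at 0 in both. CTSW was not called in shRBCK1, at 2.39, 3.44 and 2.58 against 2.70, 2.82 and 2.74 FPKM, and it was at most 0.129 FPKM in the ANKRD35 table. CTSZ, the most abundant member in the MITD1 table, fell in siMITD1 from 341, 339.5 and 334 FPKM to 300.0, 309 and 308 (-0.14 ± 0.022, limma adjusted p = 0.000458). After a correction for length and GC content together its change was 0.0 (adjusted p = 0.909). CTSH, an aminopeptidase, and CTSK, the bone-matrix collagenase, were called in no comparison, with the nearest call that of CTSK in siMITD1 (1.495, 1.51 and 0.895 against 2.47, 1.55 and 1.82 FPKM, 0.36, adjusted p = 0.0524).

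**Figure D4:**
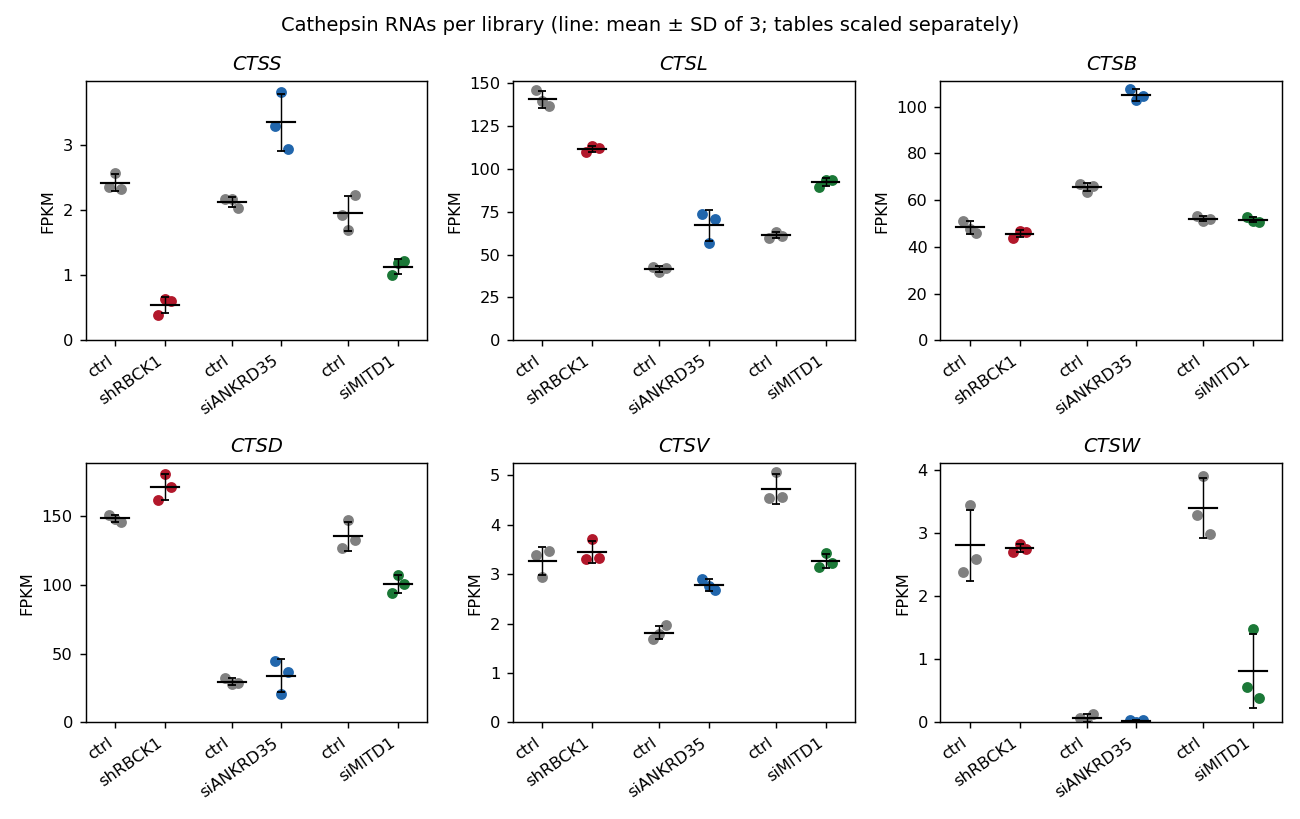
FPKM of 6 cathepsin RNAs in each library (points; grey controls, coloured knockdowns; line and bars mean ± SD of 3), with panels on separate scales from 0 and tables scaled separately. CTSS falls to 0.395 to 0.630 FPKM in shRBCK1, CTSL is lower in shRBCK1 and higher in siANKRD35 and siMITD1, and CTSD in siANKRD35 spreads from 20.7 to 44.6 FPKM.

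The summed cathepsin RNA was 644, 667 and 642 FPKM in the MITD1 control and 593, 618 and 606 in siMITD1, with no overlap. It overlapped in the RBCK1 table, at 742, 713 and 701 FPKM against 655, 716 and 697. In the ANKRD35 table it was 308, 291 and 290 FPKM in the control and 414, 316 and 381 in siANKRD35. Those sums did not overlap, and replicate 2 was the nearest to the control. As a share of each library's summed FPKM, however, the groups overlapped. The control shares were 0.101%, 0.0964% and 0.0965%, and those in siANKRD35 were 0.119%, 0.0929% and 0.112%, with replicate 2 below every control.

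LAMP2 (chrX:120427827-120469365), the receptor of chaperone-mediated autophagy in one of its isoforms, was 45.8, 48.0 and 47.5 FPKM in shcontrol and 58.1, 59.8 and 57.1 in shRBCK1. LAMP1 (chr13:113297241-113323672), the most widely used marker of lysosomes, was 41.4, 40.5 and 39.5 FPKM in shcontrol and 43.2, 44.7 and 45.4 in shRBCK1. Both were higher in all shRBCK1 libraries, by 0.30 ± 0.033 (limma adjusted p = 0.000284) and 0.13 ± 0.034 (limma adjusted p = 0.0143). The LAMP1 call was lost without shcontrol replicate 3 (adjusted p = 0.0522). In siMITD1 both fell, LAMP2 from 72.6, 67.4 and 71.0 FPKM to 57.0, 57.2 and 59.3 and LAMP1 from 54.4, 55.9 and 57.4 to 50.6, 49.9 and 48.5. Their changes were -0.28 ± 0.035 (limma adjusted p = 0.000138) and -0.17 ± 0.032 (limma adjusted p = 0.00159). The ratio of LAMP1 to LAMP2 was 0.832 to 0.904 in shcontrol and 0.744 to 0.795 in shRBCK1.

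In siANKRD35, LAMP1 was 62.7, 59.6 and 61.9 FPKM against 74.6, 71.9 and 72.7 in the control. All knockdown libraries were lower (-0.25 ± 0.063, limma adjusted p = 0.0218), and the call was lost without any control library or siANKRD35 replicate 3 (adjusted p = 0.0678 to 0.109). LAMP2 was 14.1, 21.3 and 15.8 FPKM against 18.8, 20.1 and 18.7, with replicate 2 above the controls and the others below. It was not called with all libraries (-0.18, adjusted p = 0.356), and without replicate 2 it was (-0.35, adjusted p = 0.00576).

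TFEB (chr6:41683978-41736259) was 1.79, 2.30 and 1.78 FPKM in shcontrol and 3.103, 2.995 and 3.23 in shRBCK1, 59.2% higher. The groups did not overlap (0.48 ± 0.081, limma adjusted p = 0.00232). In the MITD1 table it was 2.80, 2.85 and 2.40 FPKM against 3.0, 3.098 and 2.85, not called (0.11, adjusted p = 0.163). In siANKRD35 it was 1.85, 1.06 and 1.64 FPKM against 1.36, 1.21 and 1.003, where replicate 2 fell among the controls (0.19, adjusted p = 0.334; 0.33 and 0.037 without it).

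**Figure D5:**
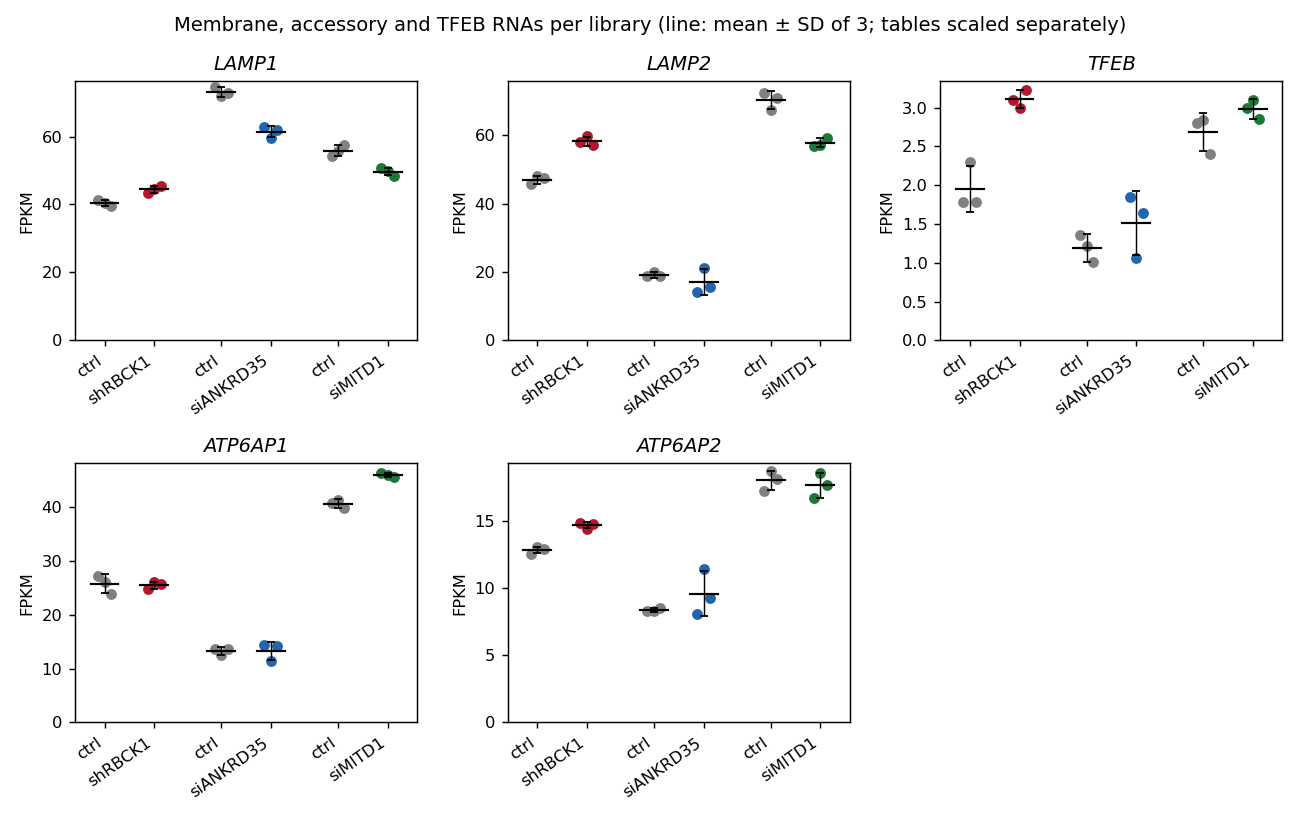
FPKM of LAMP1, LAMP2, TFEB, ATP6AP1 and ATP6AP2 in each library (points; grey controls, coloured knockdowns; line and bars mean ± SD of 3), with panels on separate scales from 0 and tables scaled separately. LAMP2 and TFEB are higher in every shRBCK1 library than in shcontrol, and LAMP1 and LAMP2 are lower in every siMITD1 library than in their control.

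Across the comparisons, 10 of the 34 tested members were called higher only, 10 lower only, 12 in opposite directions and 2 in none. In the single comparisons shRBCK1, siANKRD35 and siMITD1, 49.1%, 36.3% and 65.6% of all genes were called. Of the 27 tested in all 3, 6 were called each time: ATP6V1F always higher, ATP6V0A2 always lower, and ATP6V0B, CTSL, CTSS and LAMP1 in mixed directions. The share of all genes with each such pattern was not counted, so these counts have no like background and describe the members only.

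Relatives of TFEB and the nutrient-sensing complexes that hold it at the lysosome were tested as 19 genes in each comparison. Their counts, and those of the lists after them, stand beside shares over all genes of 24.1% higher and 24.9% lower in shRBCK1, 19.4% and 16.9% in siANKRD35, and 30.0% and 35.6% in siMITD1. Length correction and leaving out single libraries were examined for the members but not for genes of these or other lists. In siANKRD35, where changes ran with gene length (Spearman -0.41), what such settings would do to the changes of list genes was not tested. In shRBCK1 3 rose and 6 fell, with a median of -0.06; TFE3, a close relative of TFEB, fell from 38.9 to 25.0 FPKM (-0.61, limma adjusted p = 4.85e-05), and MITF, another, rose from 3.34 to 4.96 (0.46, limma adjusted p = 0.000522). In siANKRD35 5 rose and 6 fell: RRAGA, a Rag GTPase that recruits mTORC1, rose by 0.76 and MTOR, its kinase, fell by 0.69 on the log2 scale. In siMITD1 5 rose and 5 fell: RHEB, the GTPase that activates mTORC1, fell by 0.65 and RRAGA rose by 0.58. Autophagy genes of the CLEAR network were 1 higher and 10 lower of 18 in shRBCK1, with a median of -0.18 beside 0.01 for all genes and 24.9% of all genes lower. The cargo receptor SQSTM1 fell there from 115 to 61.1 FPKM (-0.90, limma adjusted p = 2.59e-06) and GABARAPL1, an ATG8 protein, by 0.78 on the log2 scale. In siANKRD35 1 rose and 2 fell of 19, the latter being ATG9A and ULK1, by 0.81 and 0.71. In siMITD1 7 rose and 6 fell of 18, near the shares over all genes, and the kinase gene ULK1 rose by 0.90 and MAP1LC3B by 0.56.

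Other lysosomal hydrolases and their activators numbered 40 tested genes in shRBCK1 (10 higher, 6 lower), 40 in siANKRD35 (1 higher, 9 lower) and 37 in siMITD1 (11 higher, 12 lower). Over all genes 24.1% were higher and 24.9% lower in shRBCK1, 19.4% and 16.9% in siANKRD35, and 30.0% and 35.6% in siMITD1, so the rises in shRBCK1 and both counts in siMITD1 are near the background. The medians of these genes were 0.05, -0.06 and -0.07. In shRBCK1 LGMN, an asparagine endopeptidase that matures cathepsins, fell from 32.7 to 21.2 FPKM (-0.60, limma adjusted p = 1.54e-05) and PLA2G15, a phospholipase, from 18.3 to 12.02. In siANKRD35 HGSNAT, a heparan sulphate acetyltransferase, fell by 0.63 on the log2 scale. In siMITD1 FUCA1, a fucosidase, fell from 28.1 to 14.8 FPKM (-0.88, limma adjusted p = 1.07e-06) while PLA2G15 rose from 11.8 to 19. Of 24 other lysosomal membrane proteins, 5 rose and 6 fell in shRBCK1, 6 and 6 in siANKRD35, and 9 and 7 in siMITD1. The cholesterol exporter NPC1 and the chloride exchanger CLCN7 fell by 0.38 and 0.36 in shRBCK1. The two-pore channel gene TPCN1 fell from 26.2 to 12.3 FPKM in siANKRD35 (-1.04, limma adjusted p = 0.000541), with CLCN6 lower by 0.74. The nucleoside transporter SLC29A3 fell from 5.48 to 2.15 FPKM in siMITD1 (-1.04, limma adjusted p = 4.02e-06), with LAPTM4B lower by 0.36.

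Genes that assemble or regulate the pump but lie outside the choice by symbol were 2 higher and 4 lower of 10 in shRBCK1, 1 and 1 of 10 in siANKRD35, and 2 and 3 of 9 in siMITD1, where the shares of all genes lower were 24.9%, 16.9% and 35.6%. NCOA7, which binds the pump, fell from 6.08 to 3.27 FPKM in shRBCK1 (-0.73, limma adjusted p = 1.66e-05), and VMA21, an assembly factor of the V0 sector, rose from 6.42 to 9.42 (0.49). In siMITD1 the assembly factor gene CCDC115 fell from 13.5 to 6.09 FPKM (-1.03, limma adjusted p = 2.01e-07) and OXR1, a relative of NCOA7, rose from 7.52 to 11.7. In siANKRD35 CCDC115 rose (0.37) and DMXL2, a part of the RAVE-like complex that rejoins V1 and V0, fell (-0.39, adjusted p = 0.0267).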

How the data were processed

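The samples were 18 RNA-seq libraries in 6 groups of 3, grouped by their titles. The authors deposited FPKM values in 3 tables, 1 per knockdown, scaled separately; the aligner, counter, counting strand and scaling steps are not given in the sources used here. Per the submitters' processing notes the build was mm10, but the start and end of all 58735 gene identifiers equal GENCODE 29 on GRCh38. Of the ANKRD35 table, 6 value columns of no sample were not used. Reads were recovered as whole multiples (tolerance 0.05 reads) in the RBCK1 and ANKRD35 tables. The MITD1 table holds symbols without gene lengths, so its reads are approximate, about 14443158 to 15780070 per library with lengths from the RBCK1 table.

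Each knockdown was fitted against its own control with limma-trend (limma 3.58.1, R 4.3.3) on log2(FPKM + 1), for genes of at least 1 FPKM in at least 3 of 6 libraries, two-sided, with Benjamini-Hochberg adjustment over all tested genes and a threshold of 0.05. The scripts were tested on simulated data. Ratios, shares and sums are descriptions without a test. The members and lists were chosen with earlier results of these data known. All members passing the filter could be named; per-library values are given for LAMP1, LAMP2, TFEB, the accessory proteins and up to 12 called members a comparison by size of change, with others added after their values were seen; of each other list, the 2 genes of smallest adjusted p, except 1 that is not reported here. Alternatives were another pseudocount, no filter, quantile or trimmed-mean rescaling, length correction, a replicate block and leaving out each library; correction for length and GC content and limma's voom on recovered reads were chosen after seeing the data. Promoter windows came from RefSeq, which had no entry for 14 members.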

Additional observations from a re-analysis of the deposited data

How the results depend on the processing

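Of the called members, 15 of 19 in shRBCK1, 7 of 18 in siANKRD35 and 18 of 20 in siMITD1 were called in the same direction under every alternative run; among members not called, 5 of 11, 11 of 14 and 4 of 11 were called under at least 1. In siANKRD35 the members called higher (14) numbered 8 without the filter and 9 with quantile normalization, and 7 to 19 when each library was left out; those called lower (4) numbered 1 to 7. All genes higher there (2305) numbered 1530 without the filter, which tests more genes, and 1167 to 3516 when each library was left out; all genes lower (2007) numbered 1100 to 3020. The median change of members in siANKRD35 (0.23) was 0.29 with a pseudocount of 0.1, 0.14 without the filter, 0.14 with quantile normalization and 0.22 to 0.29 when each library was left out. In shRBCK1 (-0.07) it was -0.02 without the filter, 0.0 with quantile normalization and -0.01 with voom. In siMITD1 (-0.03) it was 0.0 with quantile normalization, trimmed-mean rescaling or the length and GC correction, and -0.07 to -0.02 when each library was left out. With the length and GC correction ATP6V0D1 in siANKRD35, -0.01 and not called, became 0.18 (limma adjusted p = 0.0352). The call of CTSZ in siMITD1 (-0.14) was lost, with a change of 0.0 (limma adjusted p = 0.909). No called member was called in the opposite direction there. The cause was not tested. Over all genes in shRBCK1 the split of 2951 higher and 3049 lower was 3501 and 2649 with quantile normalization and 4191 and 2673 with voom. The labels do not say whether the replicate numbers pair the samples. The correlations of deviations between same-numbered libraries were -0.00681 to 0.0284 in shRBCK1, -0.0874 to 0.179 in siANKRD35 and -0.000858 to 0.105 in siMITD1. Not every library correlated best with its own number. Deviations from a group mean sum to 0, so these values cannot decide whether samples were paired. With the number as a replicate block, members called higher and lower were 8 and 10 in shRBCK1, 12 and 3 in siANKRD35, and 7 and 14 in siMITD1. The planned count-model tests on recovered reads were not run, as the deposited unit is FPKM. Low FPKM limits the precision of ATP6V0A4 in siANKRD35 (213 control reads), CTSS in shRBCK1 (123 knockdown reads), and CTSW and ATP6V1E2 in siMITD1, among others.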

Other observations

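Genes that tag hydrolases with mannose 6-phosphate and sort them to the lysosome were called in either direction in each comparison, 8 higher and 10 lower of 27 in shRBCK1, 2 and 6 of 27 in siANKRD35, and 8 and 5 of 26 in siMITD1. Over all genes 24.1% were higher and 24.9% lower in shRBCK1, 19.4% and 16.9% in siANKRD35, and 30.0% and 35.6% in siMITD1. IGF2R, the large mannose 6-phosphate receptor, rose from 19.8 to 40.2 FPKM in siMITD1 (log2 change 0.99, limma adjusted p = 2.34e-07) and fell from 10.4 to 6.62 FPKM in siANKRD35 (-0.58, limma adjusted p = 0.00189). VPS18, a tethering subunit shared by endosomes and lysosomes, fell from 19.2 to 11.4 FPKM in siMITD1, and VPS39, of the same family of complexes, from 8.09 to 5.43 in siANKRD35. In shRBCK1 GNPTAB, the enzyme that starts the tag, rose from 5.15 to 7.15 FPKM (0.41, limma adjusted p = 0.0002), and PLEKHM1, an adaptor for lysosome fusion, fell from 4.30 to 2.80.

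The inhibitors of cathepsins and related proteases were 0 higher and 4 lower of 7 in shRBCK1, 3 and 1 of 6 in siANKRD35, and 1 and 3 of 6 in siMITD1, beside those same shares over all genes. CSTB, the cytosolic cystatin that blocks cysteine cathepsins, rose from 20.9 to 46.3 FPKM in siANKRD35 (1.08, limma adjusted p = 0.00471), where CTSB, CTSL and CTSS also rose. As for the other list genes in siANKRD35, the CSTB change was not examined with a length correction or with libraries left out. CST3, the secreted cystatin, fell from 99.5 to 73.0 FPKM in siMITD1 (-0.44, limma adjusted p = 4.17e-05), and SERPINB6 rose from 26.3 to 37.4. In shRBCK1 SERPINB8 fell from 3.47 to 1.86 FPKM (-0.64, limma adjusted p = 0.000186) and SERPINB1 from 13.8 to 10.8; the latter rose in siANKRD35, from 14.2 to 20.3 FPKM.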
